A study of Mus musculus with 11 samples.

Results

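The genes that present antigen were followed here in MC38 colon carcinomas of mice treated with hetIL-15, the heterodimer of the IL-15 chain and its receptor alpha chain. Members were every measured gene whose symbol begins with H2-, Psmb, Cd1d or Tap, together with *Cd74*, *Ciita*, *Nlrc5*, *Ctss*, *Ctsl*, *Ctsh*, *Mr1*, *Psma2* and *Psmd7*. This gave 31 of the 758 genes measured. The panel holds 33 such genes, of which *H2-Q2* and *H2-Ea-ps* had been removed as low expressed, and *B2m*, the light chain of class I molecules, was not analysed here. Tumors came from 6 mice given hetIL-15 and from 5 mice given PBS. All were C57BL/6 mice that were 6 to 8 weeks old when MC38 cells, a mouse colon carcinoma line, were placed under the skin of the flank. From 5 days after inoculation the treated mice received 3 µg of hetIL-15 (purified from HEK293 cells) IP 3 times per week. Tumors of both groups were excised 3 h after injection number 4. RNA of the whole tumor was hybridized to barcoded probes of the nCounter immune panel and the bound probes were counted with no amplification step, so message from the implanted cells and from host cells was read together. Values are log2 values quantile normalized by the authors, and their depth per tumor is not given here.

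Class I molecules (*H2-K1*, *H2-D1*) display peptides from inside the cell to CD8+ T cells. Proteasomes cut these peptides, the transporter encoded by *Tap1* and *Tap2* carries them into the endoplasmic reticulum, and tapasin (*Tapbp*) helps to load them. Interferon-γ is a well-known inducer of this route, of the inducible proteasome subunits and of the coactivator *Nlrc5*. Class II molecules are found mainly on dendritic cells, B cells and macrophages, depend on the coactivator *Ciita*, and display peptides from endosomes to CD4+ T cells with the help of the invariant chain (*Cd74*), H2-DM and cathepsins. Nonclassical molecules such as Qa-1 (*H2-T23*) display a narrow set of ligands, also to receptors on NK cells.

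The promoters of 7 members are printed to show where matches to the regulatory elements named below lie. All but *H2-D1*, shown as the other classical class I heavy chain, belong to sets of genes described below that varied together across tumors. The 200 bases before each annotated start are given 5′ to 3′ in the sense of the gene, from RefSeq on build GRCm38.p6. Capitals mark matches, on either strand, to the Y box of MHC promoters (CTGATTGG), to the κB site of class I enhancer A (GGGATTCCC) or to an interferon-stimulated response element (GAAANNGAA).
*H2-Aa*, chr17:34287824-34288023, minus strand: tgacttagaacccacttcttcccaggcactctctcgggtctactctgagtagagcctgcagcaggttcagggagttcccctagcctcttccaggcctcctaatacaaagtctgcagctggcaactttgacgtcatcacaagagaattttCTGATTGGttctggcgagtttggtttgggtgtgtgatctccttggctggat
*H2-Eb1*, chr17:34305667-34305866, plus strand: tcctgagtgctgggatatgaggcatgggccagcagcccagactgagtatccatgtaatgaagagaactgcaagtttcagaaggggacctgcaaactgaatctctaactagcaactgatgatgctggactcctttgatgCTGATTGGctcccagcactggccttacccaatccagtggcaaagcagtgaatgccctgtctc
*H2-T23*, chr17:36032702-36032901, minus strand: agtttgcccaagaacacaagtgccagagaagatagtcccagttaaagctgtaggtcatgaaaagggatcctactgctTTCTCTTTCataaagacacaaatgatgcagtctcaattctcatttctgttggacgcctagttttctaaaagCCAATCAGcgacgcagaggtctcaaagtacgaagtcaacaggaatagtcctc
*Ctss*, chr3:95526586-95526785, plus strand: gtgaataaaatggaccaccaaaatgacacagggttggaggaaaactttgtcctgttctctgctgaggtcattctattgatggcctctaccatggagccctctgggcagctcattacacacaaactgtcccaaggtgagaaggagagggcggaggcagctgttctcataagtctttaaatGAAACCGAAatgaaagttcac
*H2-K1*, chr17:34000334-34000533, minus strand: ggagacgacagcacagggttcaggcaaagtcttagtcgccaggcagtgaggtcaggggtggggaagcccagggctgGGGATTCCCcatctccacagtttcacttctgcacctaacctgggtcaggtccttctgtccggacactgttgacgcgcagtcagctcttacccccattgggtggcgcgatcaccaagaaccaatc
*H2-D1*, chr17:35262894-35263093, plus strand: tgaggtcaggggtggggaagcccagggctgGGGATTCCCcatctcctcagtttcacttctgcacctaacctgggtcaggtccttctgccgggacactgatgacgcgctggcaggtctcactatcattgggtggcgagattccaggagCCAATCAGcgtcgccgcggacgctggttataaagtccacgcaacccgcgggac
*Psmb9*, chr17:34187331-34187530, minus strand: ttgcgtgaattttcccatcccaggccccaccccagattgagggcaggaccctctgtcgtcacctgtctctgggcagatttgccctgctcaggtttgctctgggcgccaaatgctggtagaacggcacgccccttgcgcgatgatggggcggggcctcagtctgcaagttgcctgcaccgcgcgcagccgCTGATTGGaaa
Of the 31 members, 20 were in the promoter table, and 250 bases before each start were searched. The Y box was found before 7 of them (*H2-Aa*, *H2-Eb1*, *H2-D1*, *H2-T23*, *Psmb9*, *Tap1* and *Psma2*) and in 3.83% of 32851 promoters. The κB site was found before *H2-K1* and *H2-D1* and in 0.301% of promoters. For the interferon element only the letters GAAANNGAA were searched. They were found before 2 of the 20 members, *H2-T23* and *Ctss*, and in 7.13% of promoters. A count this small does not set the members apart from promoters at large. The printed *H2-K1* and *H2-D1* sequences share the run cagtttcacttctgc after the κB site. This run is close to the interferon element on the other strand but does not match the letters searched, so it is left in lower case. Variant forms of the element were not searched, so the absence of a match does not show that a promoter lacks it. *H2-T23* held both the Y box and the interferon element. The Y box began 51 bases before the start of *H2-Aa*, 52 before *H2-T23*, 53 before *H2-D1* and 62 before *H2-Eb1*. *H2-K1* has 2 starts in the table, and the more downstream one is shown. Its printed sequence ends in ccaatc, the opening letters of the Y box on the other strand (CCAATCAG). Bases after the start were not searched, so a box cut by the start would be missed. *Tap1* and *Psmb9* are transcribed in opposite directions with 225 bases between their starts, so the single Y box between them lies 222 bases before *Tap1* and 11 bases before *Psmb9*. None of the motifs overlapped another. A match describes letters in these windows only.

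No member passed the test for a difference between hetIL-15 and PBS tumors. With limma, 0 of 31 members were higher and 0 were lower at an adjusted p under 0.05, against 1.72% of all genes higher and 0.396% lower (2.11% in both directions). At an unadjusted p under 0.05, 0 of 31 members passed, against 11.9% of all genes (7.39% higher and 4.49% lower). The exact Mann-Whitney test passed 1 member, *H2-M3*, at that unadjusted level and none after adjustment. The values of the groups overlapped for every member, whereas they were apart for 2.51% of all genes. The mean was higher in hetIL-15 tumors for 17 of 31 members (43.5% of all genes), and the median log2 difference, hetIL-15 minus PBS, was 0.03 over members and −0.03 over all genes. The smallest unadjusted p of a member was 0.0597, for *H2-M3*, with an adjusted p of 0.471.

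The width of the intervals sets what these tumors could show. The 95% interval of the difference lay within 2-fold in either direction for 28 of 31 members (75.7% of all genes), the exceptions being *H2-Q1*, *H2-Q10* and *Cd1d2*. It lay within 0.5 on the log2 scale for 15 members (35.1% of all genes). For the 11 genes of class I heavy chains, proteasome and peptide transport, every interval fell between 0.769-fold and 1.43-fold. The intervals of the class II genes *H2-Aa*, *H2-Ab1*, *H2-Eb1* and *Cd74* nearly filled the 2-fold range in both directions.

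**Figure D1:**
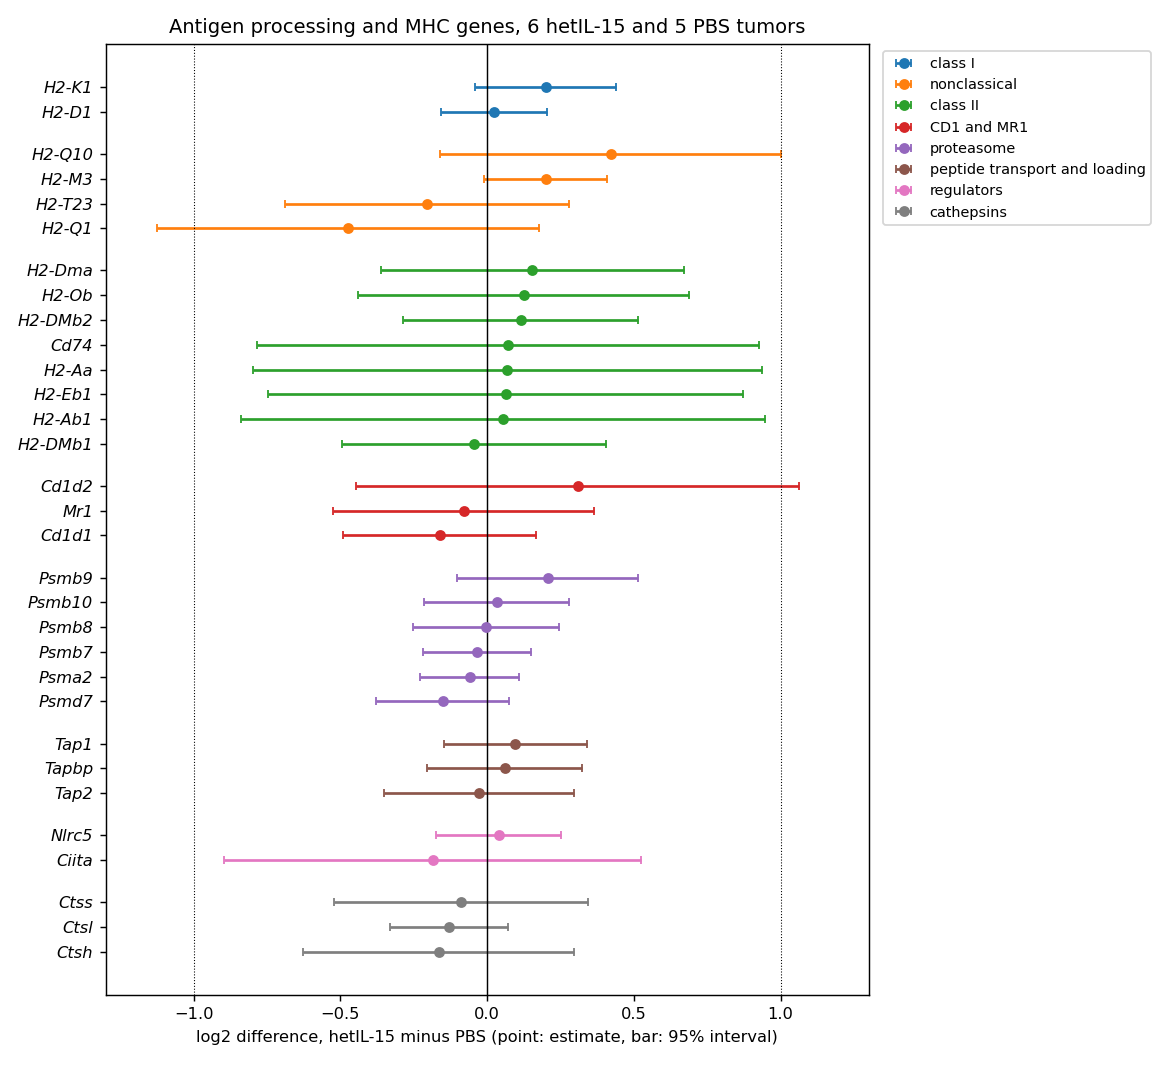
Log2 difference between hetIL-15 and PBS tumors for each of the 31 members, with the 95% interval of limma as a bar. Colors mark the class of the gene, and dotted lines mark 2-fold. Every interval includes 0, the narrowest belong to *Psma2*, *H2-D1* and *Psmb7* and the widest to *H2-Ab1*, *H2-Aa*, *Cd74* and *H2-Eb1*.

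The means of the classical class I heavy chains in hetIL-15 tumors were 1.15-fold those in PBS tumors for *H2-K1* and 1.02-fold for *H2-D1*. *H2-K1* had normalized log2 values of 13.18 to 13.5 (median 13.44) in hetIL-15 tumors, against 13.18, 13.39, 13.29, 13.07 and 12.95 in PBS tumors. PBS replicate 5 was lowest and hetIL-15 replicates 2, 3 and 4 shared the highest value. The difference was 0.20 (SE 0.11, 95% interval −0.04 to 0.44, adjusted p = 0.540). *H2-D1* lay between 14.56 and 14.76 (median 14.69) in hetIL-15 tumors, against 14.56, 14.76, 14.76, 14.56 and 14.56 in PBS tumors, a difference of 0.02 (SE 0.08, interval −0.16 to 0.20, adjusted p = 0.954). Quantile normalization sets a value by the rank of the gene within its tumor. *H2-D1* stood at places 4 to 6 of 758 in every tumor and took only 3 distinct values, so a change that kept its place would not appear. *H2-K1* stood at places 16 to 24 and took 6 distinct values. The class I heavy chains are similar in sequence, and how far each probe tells them apart is not given in the sources used here.

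The nonclassical genes had differences in both directions. *H2-T23*, which encodes Qa-1, the ligand of the receptor chain encoded by *Klrc1* (NKG2A), lay between 10.00 and 10.95 (median 10.53) in hetIL-15 tumors, against 10.77, 11.07, 10.97, 10.23 and 10.44 in PBS tumors. Low and high tumors were found in both groups, and the difference was −0.21 (SE 0.22, interval −0.69 to 0.28, adjusted p = 0.793). Its receptor gene *Klrc1*, in contrast, rose. *Klrc1* lay between 7.37 and 8.54 (median 8.07) in hetIL-15 tumors, against 6.92, 7.14, 6.96, 6.20 and 6.43 in PBS tumors, with no overlap. The difference was 1.32 (SE 0.25, adjusted p = 0.0227), and *Klrc1* was the only 1 of 18 measured receptor genes for MHC and MHC-like molecules that passed the adjusted threshold. The direction held under all 20 alternatives, but the call was kept in 12: adjusted p was 0.227 by Bonferroni, 0.173 by the exact Mann-Whitney test and 0.145 without PBS replicates 4 and 5. Omitting hetIL-15 replicate 3 (0.0531) or 4 (0.0554) also ended the call, as did omitting PBS replicate 4 (0.0558) or 5 (0.0623), and the replicate block gave 0.0897. At an unadjusted p under 0.05, 5 of the 18 receptor genes were higher and 1 was lower, against 7.39% and 4.49% of all genes. After adjustment 1.72% of all genes were higher. NK cell markers (5 of 6 measured, 1 called higher) had a mean log2 value of 6.84 to 7.25 in hetIL-15 tumors and 6.52 to 6.84 in PBS tumors, and their part in the level of *Klrc1* was not tested.

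*H2-M3*, which presents formylated peptides, had the smallest p of any member. It lay between 9.66 and 9.94 (median 9.84) in hetIL-15 tumors, against 9.54, 9.82, 9.66, 9.54 and 9.49 in PBS tumors. Only PBS replicate 2 and replicate 3 reached the range of the treated tumors, and the difference of 0.20 had an SE of 0.10 (interval −0.01 to 0.41). *H2-Q10*, a secreted class I molecule made chiefly by liver, lay between 4.64 and 5.74 (median 5.21) in hetIL-15 tumors, against 5.19, 4.76, 5.19, 4.17 and 4.17 in PBS tumors. *H2-Q1* lay between 1.92 and 3.75 (median 3.28) in hetIL-15 tumors, against 3.31, 3.80, 3.75, 3.75 and 3.78 in PBS tumors. Both genes are low in signal (a mean log2 value under 5.178, the 0.25 quantile of all genes), where the scale moves in coarse steps. *H2-Q10* differed by 0.42 with an SE of 0.26 and *H2-Q1* by −0.47 with an SE of 0.30, and the adjusted p was 0.600 for each.

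The class II genes had small differences in mean between the groups and wide ones between tumors. *H2-Aa*, the alpha chain of I-A, lay between 10.91 and 12.08 (median 11.72) in hetIL-15 tumors, against 11.4, 12.68, 12.13, 10.57 and 10.77 in PBS tumors. *H2-Ab1*, its beta chain, lay between 9.95 and 11.26 (median 10.76) in hetIL-15 tumors, against 10.44, 11.73, 11.37, 9.69 and 9.88 in PBS tumors. Both chains put the 11 tumors in the same order, with PBS replicates 2 and 3 at the top and PBS replicates 5 and 4 at the bottom, so the treated tumors lay inside the range of the controls. *H2-Eb1*, the beta chain of I-E, lay between 8.24 and 9.47 (median 8.89) in hetIL-15 tumors, against 8.39, 9.97, 9.30, 8.01 and 8.36 in PBS tumors. *Cd74* lay between 11.23 and 12.29 (median 11.74) in hetIL-15 tumors, against 11.52, 12.95, 12.24, 10.65 and 10.99 in PBS tumors. For both genes, too, PBS replicate 2 was highest and PBS replicate 4 lowest.

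The differences of these 4 genes lay between 0.05 and 0.07 with SEs of 0.37 to 0.41, and adjusted p values were 0.960 to 0.965. From the lowest to the highest tumor the level differed 4.32-fold for *H2-Aa*, 4.13-fold for *H2-Ab1*, 3.90-fold for *H2-Eb1* and 4.90-fold for *Cd74*. The size and direction moved with single tumors. Without PBS replicate 2 the difference of *H2-Aa* was 0.36, and without PBS replicates 4 and 5 it was −0.49, with adjusted p values of 0.701 and 0.779. The median over all 8 class II members was 0.07, and it was 0.34 and −0.26 under the same omissions. Leaving out single tumors also put this median below 0: −0.10 when the tumor was PBS replicate 4 and −0.07 for PBS replicate 5. It was −0.03 and −0.01 when hetIL-15 replicates 3 and 4 were each left out.

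**Figure D2:**
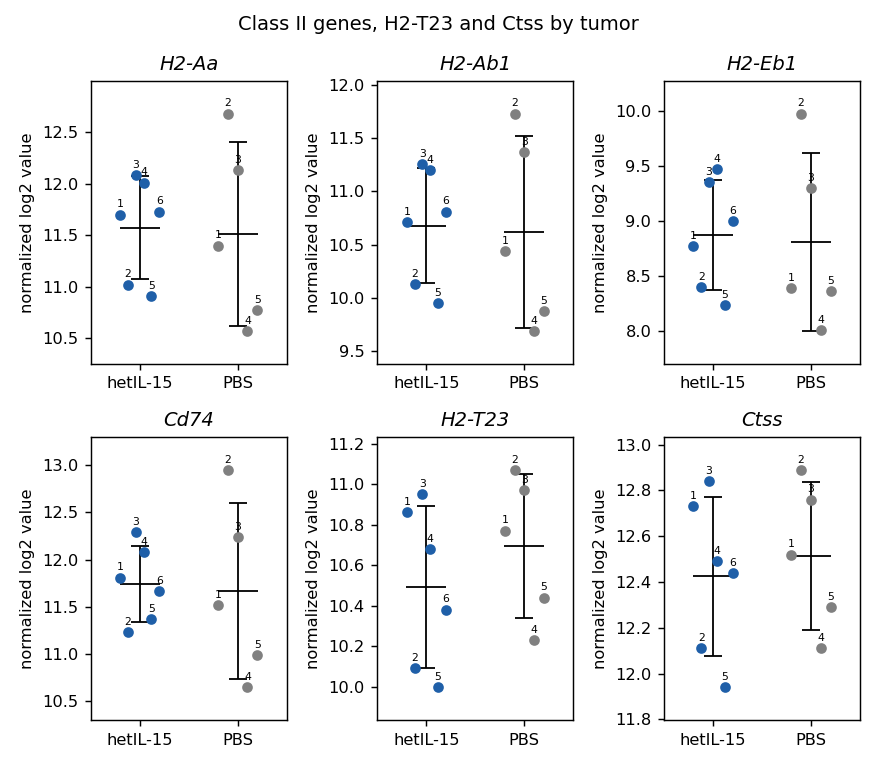
Normalized log2 values of *H2-Aa*, *H2-Ab1*, *H2-Eb1*, *Cd74*, *H2-T23* and *Ctss* in each tumor, with hetIL-15 tumors in blue and PBS tumors in gray. Digits give the replicate number, and the bars show the mean and SD. The vertical scales differ between genes and do not start at 0. PBS replicate 2 is the highest tumor in every panel, and the treated tumors overlap the controls.

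The helpers of class II loading were not called either. *H2-Dma*, *H2-DMb1* and *H2-DMb2* encode H2-DM, which exchanges peptides, and *H2-Ob* encodes a chain of its inhibitor H2-O. Their differences lay between −0.04 and 0.15, and their levels in the highest tumor were 1.96-fold to 2.86-fold those in the lowest. The cathepsins, which degrade antigen and the invariant chain, all had a lower mean in hetIL-15 tumors, with differences of −0.13 for *Ctsl*, −0.17 for *Ctsh* and −0.09 for *Ctss*. Their SEs were 0.09, 0.21 and 0.20, and adjusted p values were 0.654 to 0.933. *Ctsl* lay between 11.23 and 11.58 (median 11.41) in hetIL-15 tumors, against 11.67, 11.4, 11.47, 11.63 and 11.56 in PBS tumors.

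Markers of the cells that carry class II were read beside these genes, since in whole tumors fewer cells of a type and less RNA per cell cannot be told apart. Of the dendritic cell markers 5 of 8 were measured. Their mean log2 value lay between 4.71 and 5.21 in hetIL-15 tumors and between 5.07 and 5.29 in PBS tumors. The mean was higher in hetIL-15 tumors for 2 of the 5 and lower for 3, with differences of −0.76 to 0.28 (median −0.15). Only *Itgax* (named after its value was seen) was lower at an unadjusted p under 0.05, with a difference of −0.76 (SE 0.20, adjusted p = 0.126). Macrophage and monocyte markers (8 of 9 measured) lay between 8.66 and 9.11 in hetIL-15 tumors and between 8.64 and 9.12 in PBS tumors. B cell markers (6 of 7 measured) lay between 3.41 and 3.93 in hetIL-15 tumors and between 3.75 and 4.45 in PBS tumors. These B cell means all lay under 5.178, the value used here for low signal, and the dendritic cell means lay near it. None of these 19 markers was called, and their part in the class II values was not tested.

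The peptide supply for class I varied little, with a median difference of 0.00 over the 9 genes of proteasome and transport. The proteasome subunits were measured by 6 genes, of which *Psmb8*, *Psmb9* and *Psmb10* are the inducible ones and *Psmb7* is the constitutive subunit that *Psmb10* replaces. *Psmb8* lay between 12.01 and 12.61 (median 12.46) in hetIL-15 tumors, against 12.49, 12.4, 12.49, 12.36 and 12.33 in PBS tumors, a difference of 0.00 (SE 0.11, interval −0.25 to 0.24). *Psmb10* lay between 10.28 and 10.82 (median 10.67) in hetIL-15 tumors, against 10.75, 10.68, 10.46, 10.62 and 10.42 in PBS tumors, a difference of 0.03 (SE 0.11, interval −0.21 to 0.28). *Psmb9* lay between 9.84 and 10.64 (median 10.35) in hetIL-15 tumors, against 10.09, 10.25, 10.25, 9.90 and 10.04 in PBS tumors, a difference of 0.21 (SE 0.14, interval −0.10 to 0.52, adjusted p = 0.641). For *Psmb9*, hetIL-15 replicates 2, 4 and 5 lay above every control and replicate 6 below every control. That tumor was also the lowest of all 11 for *Psmb8*, *Psmb10*, *Tap1* and *Nlrc5*.

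The ratio of the inducible *Psmb10* to the constitutive *Psmb7* within a tumor was tested directly, as a shift common to all genes of a tumor cancels in it. Quantile normalization acts by rank, and its effect need not cancel in this ratio. The log2 ratio was −1.95 ± 0.23 in hetIL-15 tumors (SD, n = 6) and −2.02 ± 0.19 in PBS tumors (SD, n = 5), a difference of 0.07 with an exact two-sided permutation p of 0.595 over 462 groupings. The constitutive genes *Psmb7* and *Psma2* differed by −0.04 and −0.06. *Psmd7*, a subunit of the regulatory cap, lay between 12.24 and 12.45 (median 12.4) in hetIL-15 tumors, against 12.68, 12.24, 12.36, 12.64 and 12.64 in PBS tumors. It had the lowest difference of the group, −0.15 (SE 0.10, adjusted p = 0.641), and its groups overlapped in PBS replicates 2 and 3.

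*Tap1* lay between 12.11 and 12.64 (median 12.34) in hetIL-15 tumors, against 12.29, 12.36, 12.33, 12.24 and 12.13 in PBS tumors, a difference of 0.10 (SE 0.11, adjusted p = 0.815). hetIL-15 replicates 2, 4 and 5 lay above every control and replicate 6 below every control. *Tap2* and *Tapbp* differed by −0.03 and 0.06. The lipid-presenting *Cd1d1* lay between 7.04 and 7.61 (median 7.27) in hetIL-15 tumors, against 7.47, 7.23, 7.34, 7.64 and 7.66 in PBS tumors, a difference of −0.16 (SE 0.15, adjusted p = 0.773). *Mr1*, which presents vitamin B metabolites, differed by −0.08, and *Cd1d2*, low in signal, by 0.31 (SE 0.34).

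**Figure D3:**
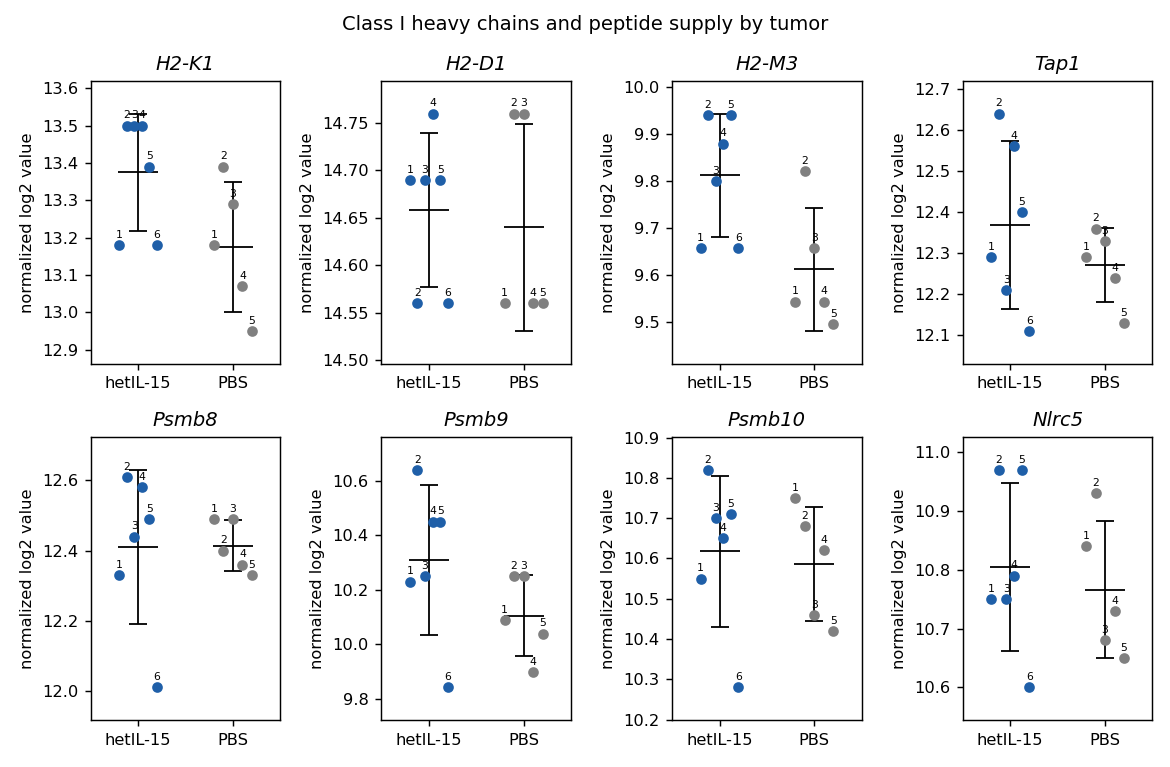
Normalized log2 values of *H2-K1*, *H2-D1*, *H2-M3*, *Tap1*, *Psmb8*, *Psmb9*, *Psmb10* and *Nlrc5* in each tumor, with hetIL-15 tumors in blue and PBS tumors in gray. Digits give the replicate number, and the bars show the mean and SD. The vertical scales differ between genes and do not start at 0. Groups overlap for each gene, and hetIL-15 replicate 6 is the lowest tumor for *Tap1*, the 3 inducible subunits and *Nlrc5*.

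Neither coactivator passed the test. *Nlrc5* lay between 10.6 and 10.97 (median 10.77) in hetIL-15 tumors, against 10.84, 10.93, 10.68, 10.73 and 10.65 in PBS tumors, a difference of 0.04 (SE 0.10, interval −0.17 to 0.25, adjusted p = 0.944). *Ciita*, low in signal, lay between 4.46 and 5.32 (median 4.91) in hetIL-15 tumors, against 4.92, 5.92, 5.85, 4.17 and 4.62 in PBS tumors, a difference of −0.19 (SE 0.32, interval −0.90 to 0.52, adjusted p = 0.899). The controls held both the lowest and the highest tumor for *Ciita*, with an SD of 0.34 in hetIL-15 tumors and 0.77 in PBS tumors.

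The interferon-γ axis, which acts on both coactivators, was read from 12 of 13 listed genes. Of these 0 passed the adjusted threshold (2.11% of all genes), while 3 were higher at an unadjusted p under 0.05 (7.39% of all genes). The median difference of the 12 genes was 0.06. *Ifng* itself lay between 4.17 and 5.89 (median 5.05) in hetIL-15 tumors, against 4.41, 4.17, 4.46, 4.58 and 3.23 in PBS tumors, a difference of 0.92 (SE 0.32, interval 0.22 to 1.63, adjusted p = 0.291). Its signal is low, and the highest control, replicate 4, was exceeded by 5 of 6 treated tumors. *Irf1*, a transcription factor gene induced by interferon-γ, differed by 0.15 (SE 0.13, adjusted p = 0.752).

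Across tumors the members did not vary as 1 block. After the mean of each group was removed, all 465 pairs of members were correlated over the 11 tumors, with p from all 86400 permutations within groups and adjustment over the 465 pairs. At an adjusted p under 0.05, 38 pairs were positively and 1 was negatively correlated. All values of a tumor share its RNA sample and its normalization. The share of pairs that would pass among all genes measured was not computed, so these counts are not a trait shown to be particular to the members.

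*H2-T23* passed with 3 of the 8 class II members, *H2-Aa*, *H2-Ab1* and *Cd74*. *H2-Aa* and *H2-Ab1* had r = 0.99 and rho = 1.00 (adjusted permutation p = 0.0027 for r and 0.00537 for rho). The closest partner of *H2-T23* was not a class I gene but *Ctss*, which encodes the protease that trims the invariant chain. *H2-T23* and *Ctss* had r = 0.98 (permutation p = 1.16e-05, the smallest the permutations can give, adjusted 0.0027) and rho = 0.99 (permutation p = 2.31e-05, adjusted 0.00537). The relation was 0.97 without the pair of tumors farthest from the median and 0.98 within the 6 hetIL-15 tumors. *H2-T23* also correlated with *Ctsh* (r = 0.93), *H2-Aa* (r = 0.88), *H2-Ab1* (r = 0.88) and *Cd74* (r = 0.85). Its r was 0.81 with *H2-Eb1* (adjusted permutation p = 0.0575) and −0.17 to 0.45 with *H2-Ob* and the H2-DM genes. With *Nlrc5* its r was −0.20, and with *Psmb9* 0.03.

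Some of the other pairs that passed lay in the class I route. *H2-K1* and *Tapbp* had r = 0.92 (permutation p = 0.000694, adjusted 0.0193) and rho = 0.92 (adjusted permutation p = 0.0152), 0.90 without the farthest tumors and 0.90 within the hetIL-15 tumors. *H2-K1* also correlated with *H2-M3* (r = 0.86) and with *H2-Dma* (r = 0.90), a class II helper. *Psmb8* and *Psmb9* had r = 0.90, *Psmb9* and *Tap1* 0.88, and *Psmb10* and *Nlrc5* 0.85. Without the farthest tumors these were 0.67, 0.72 and 0.75. By rank *Psmb8* and *Psmb9* did not pass (adjusted permutation p = 0.0599), while the other pairs named in the previous sentences on the inducible subunits did (0.0309 and 0.0288). *H2-D1* passed with no other member. Its r was 0.83 with *Ciita*, 0.79 with *Cd74*, 0.78 with *H2-DMb1* and 0.74 with *H2-Ab1* and *H2-Eb1*, and 0.58 with *H2-K1* (adjusted permutation p = 0.0676 to 0.261). *Psmb7* correlated with *Psmd7* (r = 0.93) and *Ctsl* (r = 0.88), and *Psmd7* with *Ctsl* (r = 0.81), each with an adjusted permutation p of 0.0194. By rank these did not pass (adjusted permutation p = 0.0506 to 0.0836). *H2-DMb1* passed with *H2-Dma* (r = 0.87, adjusted permutation p = 0.0203) and with the low-signal *H2-Q1* (r = 0.71, adjusted permutation p = 0.0255). The latter did not pass by rank (adjusted permutation p = 0.105). The only negative pair that passed was *Cd1d1* with *Ctss* (r = −0.87, adjusted permutation p = 0.0194).

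Described as groups chosen after these values were seen, the 7 genes *H2-Aa*, *H2-Ab1*, *H2-Eb1*, *Cd74*, *H2-T23*, *Ctss* and *Ctsh* had pairwise r of 0.81 to 0.99 (median 0.89). The 8 genes *H2-K1*, *H2-M3*, *Tapbp*, *Tap1*, *Psmb8*, *Psmb9*, *Psmb10* and *Nlrc5* had pairwise r of 0.61 to 0.92 (median 0.75). Between the sets the 56 pairs had r of −0.24 to 0.62 (median 0.03). Genes between the sets were left out of both: *H2-Dma* had r = 0.90 with *H2-K1* and 0.74 with *Cd74*, and *H2-D1* is given above.

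**Figure D4:**
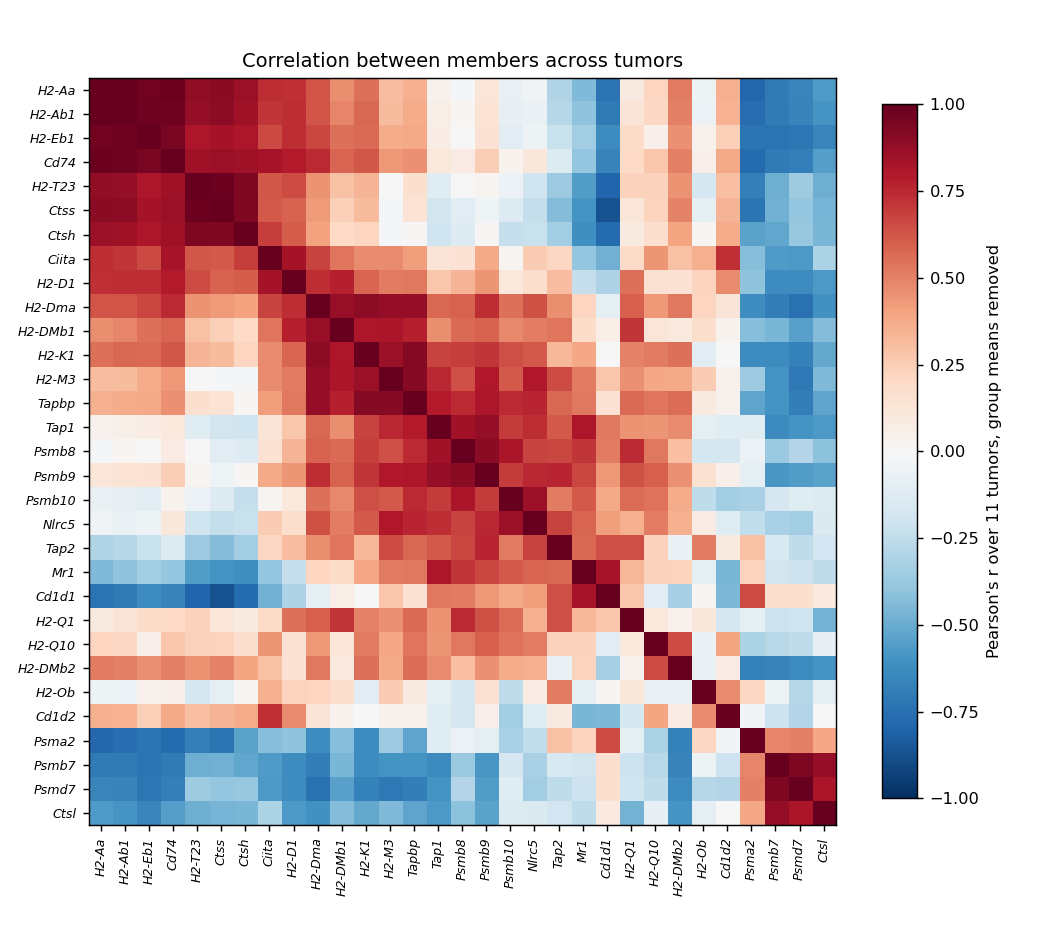
Pearson's r over 11 tumors for each pair of the 31 members after the mean of each treatment group was removed, from −1 (blue) to 1 (red). Genes are ordered by hand to bring similar rows together. Dark squares hold *H2-Aa*, *H2-Ab1*, *H2-Eb1*, *Cd74*, *H2-T23*, *Ctss* and *Ctsh* (r of 0.81 to 0.99) and the 8 genes of the class I route with *Nlrc5* (r of 0.61 to 0.92). A smaller square holds *Psmb7*, *Psmd7* and *Ctsl* (r of 0.81 to 0.93). *H2-D1*, *H2-Dma* and *H2-DMb1* have red cells toward both of the larger squares.

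Genes outside the members were set beside both patterns in a family of 124 pairs, with adjustment over the family. *Ptprc*, which encodes the leukocyte marker CD45, differed by −0.01 between the groups (SE 0.20, adjusted p = 0.989) and passed with 2 of the 8 class II members. It correlated with *H2-Ab1* (r = 0.92, permutation p = 0.000359, adjusted 0.036) and *H2-Aa* (r = 0.90, adjusted permutation p = 0.036), and with *H2-T23* and *Ctss* (r = 0.87 for each, adjusted permutation p = 0.036 and 0.0449). By rank these relations were 0.78 to 0.88 and did not pass (adjusted permutation p = 0.055 to 0.109). Without the farthest pair of tumors r was 0.73 to 0.92. Its r was 0.86 with *H2-Eb1* and 0.84 with *Cd74* (adjusted permutation p = 0.0502 and 0.0547), and −0.29 to 0.59 with the other class II members. With *H2-K1* and *Psmb9* the r of *Ptprc* was 0.54 and 0.17. In the same family *Ifng* and *Irf1* passed with 0 members each. The highest r of *Ifng* was 0.81 with *Psmb10* (adjusted permutation p = 0.0547), then 0.77 with *Tapbp* and 0.74 with *Psmb8* (0.0781 for each). Without the farthest pair of tumors these were 0.48, 0.33 and 0.41, and by rank 0.67, 0.56 and 0.66. Within the hetIL-15 tumors alone r was 0.95 with *Psmb10*, 0.91 with *Tapbp* and 0.85 with *Psmb8*. With *H2-Aa* and *H2-Ab1* the r of *Ifng* was −0.12 and −0.11 over both groups, and −0.62 and −0.57 within the hetIL-15 tumors. No p was computed for these pairs within the hetIL-15 tumors. The highest r of *Irf1* was 0.75 with *Psmb9* (adjusted permutation p = 0.157).

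The coactivators were tested against their known targets in a family of 10 pairs over the 11 tumors with 100000 permutations. *Ciita* correlated with *Cd74* (r = 0.80, permutation p = 0.00351, adjusted 0.031, rho = 0.76, adjusted 0.0294), *H2-Aa* (r = 0.71, adjusted permutation p = 0.0358) and *H2-Ab1* (r = 0.70, adjusted permutation p = 0.0373). With *H2-Eb1* and *H2-Dma* r was 0.64 and 0.62, and neither passed. These relations rested on PBS replicates 2 and 3: without them r was 0.29 to 0.61, and within the 6 hetIL-15 tumors it was −0.15 to 0.21.

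*Nlrc5* correlated with *Tap1* (r = 0.74, permutation p = 0.00804, adjusted 0.031, rho = 0.81) and *Psmb9* (r = 0.74, permutation p = 0.00929, adjusted 0.031, rho = 0.76). With *H2-K1* r was 0.59 (adjusted permutation p = 0.0726), with *H2-D1* 0.19 and with *H2-T23* −0.23. Without hetIL-15 replicates 2 and 5 the r of *Nlrc5* with *Tap1* was 0.62 and with *Psmb9* 0.51. The same omission gave 0.46 with *H2-K1*, 0.44 with *H2-D1* and 0.57 with *H2-T23*, so the sign for *H2-T23* turned with these tumors. Within the hetIL-15 tumors *Nlrc5* and *Psmb9* had r = 0.91 (exact permutation p = 0.0111, adjusted 0.111). With group means removed, r was 0.74 for *Tap1* and 0.76 for *Psmb9*, and 0 of the 10 pairs passed after adjustment.

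**Figure D5:**
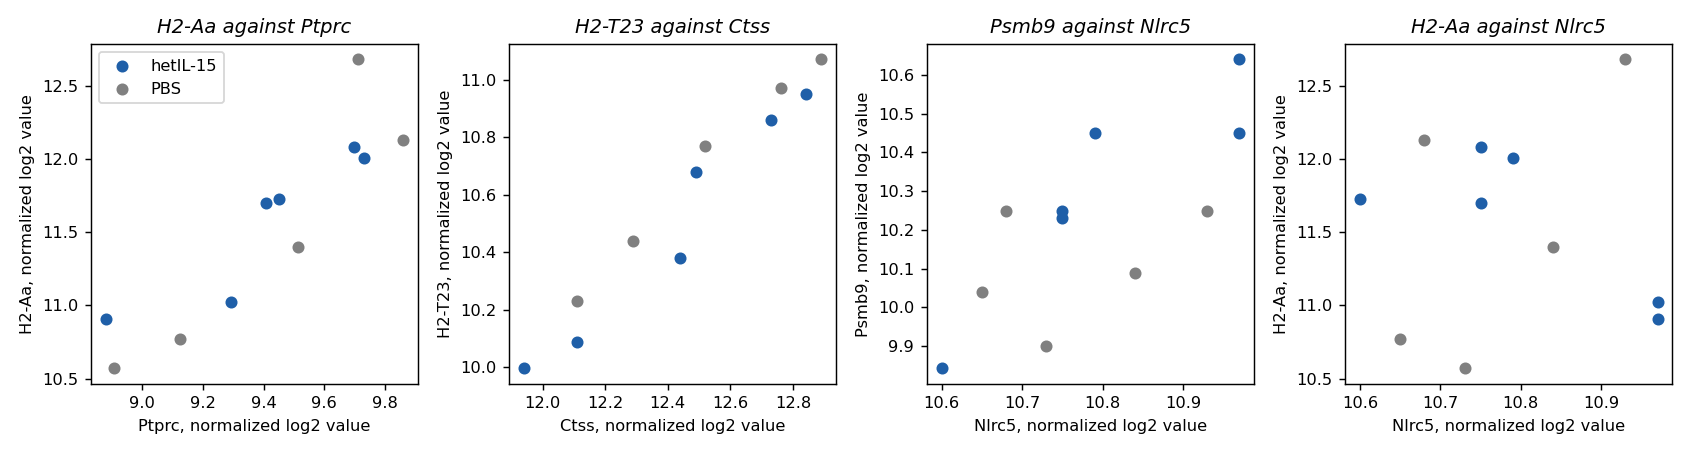
Normalized log2 values of pairs of genes in each tumor, with hetIL-15 tumors in blue and PBS tumors in gray, for *H2-Aa* against *Ptprc*, *H2-T23* against *Ctss*, *Psmb9* against *Nlrc5* and *H2-Aa* against *Nlrc5*. The scales do not start at 0. Points of both groups lie along 1 line for *H2-T23* and *Ctss* (r = 0.98 with group means removed), whereas *H2-Aa* and *Nlrc5* show no such line.

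The genes of the whole table most like *H2-Aa*, by r over 11 tumors after group means were removed, were *H2-Ab1* (0.99), *Cd74* (0.98), *H2-Eb1* (0.97), *Fcgr4*, an IgG Fc receptor (0.91), and *Ly86* (0.91). Those most like *H2-K1* were *Tapbp* (0.92), the tetraspanin gene *Cd9* (0.90), *H2-Dma* (0.90), the granzyme gene *Gzma* (0.87) and *Slamf7* (0.87). The median within-group SD was 0.55 on the log2 scale for the class II members, 0.16 for the proteasome, 0.13 for class I and 0.34 over all genes. In the order of SD over the 758 genes, *H2-Ab1*, *H2-Aa*, *Cd74* and *H2-Eb1* held places 102 to 132 from the highest, and *Psma2* held place 743.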

How the data were processed

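RNA of 11 MC38 tumors was measured on a panel of 780 genes. The authors filtered out genes of low expression, took logarithms and applied quantile normalization across tumors. The deposited log2 values of 758 genes were used as given. Off the log2 scale they sum to 999186 to 999245 per tumor, and 69.9% of values are shared with another gene of the same tumor. A second deposited table was used only for probe classes, names and accessions, since its 11 columns of counts match no sample, so depth per tumor is not given and no count model was fitted. Nothing states more on separate cultures or cages, so p values measure the spread between these tumors.

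Groups were compared with limma 3.58.1 (R 4.3.3, lmFit and eBayes) over all 758 genes with Benjamini-Hochberg adjustment, as tested on simulated data. Correlations and permutation tests used Python 3.11.15 and SciPy 1.17.1, and figures matplotlib 3.10.9. Tumors were treated as unpaired. Same-numbered tumors correlated at −0.0516 to 0.13 with group means removed, which cannot exclude a shared cage or day, so a replicate block was fitted as an alternative. Of the members, 30 matched a RefSeq symbol by accession. *Psmb5* and *Psmb6* were not analysed here, so only *Psmb10* over *Psmb7* was tested. Members and lists were chosen with earlier results of these data known. For 13 fixed members and for the 8 with the smallest p, the value of each PBS tumor is given. The hetIL-15 tumors are given by their lowest, highest and median value, and singly for the genes of the figures by tumor. Pairs of members and of outside genes, and the alternatives for *Klrc1*, were added after seeing the values. The pairs of 1 outside gene are not reported here. Alternatives were scaling to the median or to housekeeping genes, a filter on genes under the 0.25 quantile of mean value, an intensity trend, array weights, the exact Mann-Whitney test, Bonferroni adjustment, a replicate block, and leaving out tumors.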

Additional observations from a re-analysis of the deposited data

Results flagged for a closer look

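Each group of tumors was searched, gene by gene, for a tumor at an end of the range that stands far from the rest. Of 62 groups tested over the 31 members, 3 held such a tumor, and chance gives about 1 in 20. *H2-Q1* was 1.92 in hetIL-15 replicate 6, against 3.23 in the next lowest treated tumors. *H2-Q1* was also 3.31 in PBS replicate 1, against 3.75 in the next lowest controls, and its signal is low throughout. *Tap2* was 8.49 in PBS replicate 1, against 8.76 in the next lowest control.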

How the results depend on the processing

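No member passed an adjusted p of 0.05 under any of 20 alternatives (0 of 585 values), and the smallest adjusted p was 0.286, for *H2-M3* without PBS replicate 2. The direction of 20 members turned under at least 1 alternative, always without a call, and 11 kept theirs. At an unadjusted p under 0.05, 0 members were higher, against 1 with centring on housekeeping genes, 1 without genes under the 0.25 quantile of mean value, 1 with the intensity trend, 1 with the exact Mann-Whitney test and 2 with the replicate block, and 0 to 2 when each tumor was left out. The number lower was 0, against 1 without PBS replicates 4 and 5 together and 0 to 1 when each tumor was left out. The replicate block changed no call of a member and gave *Klrc1* an adjusted p of 0.0897. The log2 ratio of *Psmb10* to *Psmb7* turned to −0.0438 without PBS replicates 4 and 5 (exact permutation p = 0.81). Of the coactivator pairs 5 passed over all tumors, against 0 with group means removed and 0 within the 6 hetIL-15 tumors. The median differences of the classes moved by less than the spread between tumors. Precision is limited by the 11 tumors, and for *H2-Q1*, *H2-Q10*, *Cd1d2* and *Ciita* by low signal. The causes of these changes were not tested.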
